A study of Homo sapiens with 4 samples.

Results

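Expression of 10 genes that drive chromosomes through mitosis was examined in human mammary epithelial cells with and without a short hairpin RNA (shRNA) against the kinase PAK1. The genes were the Aurora kinases AURKA and AURKB, the Polo-like kinase PLK1, the centrosomal kinase NEK2, the chromosomal passenger proteins BIRC5, INCENP and CDCA8, the AURKA activator TPX2, and the mitotic kinases MELK and PBK. They were chosen by name, as the array features other than controls that carried one of these 10 gene symbols. Their values did not enter this rule, but earlier results of these data were known when the genes were chosen. The 10 genes were covered by 30 spots and 12 different probes, out of 27193 gene names, 43118 spots and 34127 probes on the array. All 10 passed the filter on dim signal, and they stood among 21248 genes that were tested.

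All cells were MCF10A.B2, a subline of the non-tumorigenic mammary line MCF10A that carries a chimeric form of the receptor Her2 (ErbB2), which the crosslinker AP1510 switches on. The groups were control cells (Pak1 wild type by their labels, 2 arrays) and cells stably carrying a tetracycline-inducible shRNA against Pak1 (PAK1 shRNA, 2 arrays). Both groups were grown in 5% horse serum, deprived of serum for 3 h and exposed to AP1510 for 15 min before RNA was taken. The labels do not say whether control cells were parental or held an uninduced hairpin. The study's methods set wild type cells of the line beside cells with the hairpin, and do not state an induction for the arrays. No array with a non-targeting hairpin was analysed here, so an effect of PAK1 loss and an effect of carrying or inducing a hairpin cannot be told apart. The series description speaks of cells from different tumors, while the sample labels name this cell line, and nothing in the labels says that the replicates were separate cultures. The p-values therefore measure only the spread between these arrays, which may be technical.

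These genes act in a relay. AURKA, held active by TPX2 on spindle microtubules, activates PLK1 at mitotic entry, and NEK2 loosens the link between centrosomes so that they can separate. AURKB is the enzyme of the chromosomal passenger complex, in which INCENP is the scaffold and BIRC5 (survivin) and CDCA8 (borealin) bring the complex to centromeres and the midzone, where it corrects faulty microtubule attachments and guides cytokinesis. MELK and PBK are kinases that are abundant in dividing cells and in many breast tumors. The messages of such genes build up in G2 and mitosis and are low in resting cells.

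Many genes of this kind carry a CCAAT box, bound by the factor NF-Y, and a cell cycle genes homology region (CHR), bound by MuvB complexes, close to the start of the gene. Reference promoters, from 250 bases before to 50 bases after the start, were held by the RefSeq table (GRCh38.p14) for 6 of the 10 genes: AURKB, CDCA8, INCENP, MELK, NEK2 and PLK1. AURKA, BIRC5, TPX2 and PBK are named only. The 120 bases before the start are shown for these 6, of which 5 fell by over 6-fold and MELK by the least. Capitals mark TTTGAA, the core of the CHR, and CCAAT or its reverse complement ATTGG. The windows are chr16:23678769-23678888 (plus strand) for PLK1, chr1:37692396-37692515 (plus strand) for CDCA8, chr11:62123891-62124010 (plus strand) for INCENP, chr1:211675622-211675741 (minus strand) for NEK2, chr17:8210226-8210345 (minus strand) for AURKB and chr9:36572775-36572894 (plus strand) for MELK, each written 5′ to 3′ along the gene.
PLK1: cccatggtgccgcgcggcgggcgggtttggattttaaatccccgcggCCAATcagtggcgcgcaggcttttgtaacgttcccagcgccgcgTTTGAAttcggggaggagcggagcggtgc
CDCA8: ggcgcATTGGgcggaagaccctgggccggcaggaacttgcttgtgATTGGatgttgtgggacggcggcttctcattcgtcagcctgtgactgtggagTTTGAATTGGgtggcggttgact
INCENP: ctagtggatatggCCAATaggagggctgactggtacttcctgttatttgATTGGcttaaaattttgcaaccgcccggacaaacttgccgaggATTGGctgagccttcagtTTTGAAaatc
NEK2: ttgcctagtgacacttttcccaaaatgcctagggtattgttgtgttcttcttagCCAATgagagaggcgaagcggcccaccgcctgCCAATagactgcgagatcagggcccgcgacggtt
AURKB: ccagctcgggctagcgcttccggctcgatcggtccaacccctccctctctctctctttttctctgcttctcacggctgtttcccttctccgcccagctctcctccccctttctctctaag
MELK: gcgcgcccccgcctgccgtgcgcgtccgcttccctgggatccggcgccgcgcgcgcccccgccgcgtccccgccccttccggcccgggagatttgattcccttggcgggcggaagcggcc

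TTTGAA, searched on both strands, lay within these promoters in 3 of the 6 genes. It began 29 bases before the start in PLK1, 23 in CDCA8 and 10 in INCENP. Of 35116 windows of the same length from 27305 genes, 15.2% held TTTGAA anywhere and 2.56% held it in the last 50 bases before the start. CCAAT, also on both strands, was in 5 of the 6 windows, with 3 copies each in CDCA8 and INCENP, 2 in NEK2 and 1 each in PLK1 and AURKB, and was in 34.6% of all windows. In CDCA8 the last base of TTTGAA is also the first base of an ATTGG. The AURKB bases shown hold neither motif, since its CCAAT lay 153 bases before this start (129 before the other start listed for the gene). MELK held neither motif in its whole window. None of the 6 windows held the E2F letters TTTCGCGC or TTTGGCGC, which were in 0.515% and 0.652% of all windows. A match or its absence describes these letters in this window and was not tied to the measured levels by any test.

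The labelled RNA of each sample was read in 1 colour on a whole genome array from Agilent, with the 4 arrays on a single slide. Between 78.87% and 83.16% of probes were well above background on an array, and the number of arrays limits the precision. A few spots on the control arrays, 8 and 18, had a local background over 100 (none on the PAK1 shRNA arrays). Spots of flagged background, 618 and 651 on the control arrays, moved the background model of those arrays when it was fitted on all spots. The part of the spots over 100 alone was not tested. The values below come from a model fitted without spots of flagged background, and those of the fit on all spots follow the account of the 10 genes. Values are normalized log2 intensities of 1 probe, so a level is not compared between genes. PAK1 itself had levels of 11.22 and 11.30 in control cells and of 10.47 and 10.54 in PAK1 shRNA cells. The message was at 59.2% of the control level in the cells labelled PAK1 shRNA (log2 fold change -0.76, standard error 0.077, adjusted p = 0.000173). A lower fold change than that of PAK1 was seen for 14.2% of all genes tested.

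The cell line was checked by marker lists. All 7 basal mammary markers that could be tested, out of 8 listed, were above background on every array. Of these, 5 were lower in PAK1 shRNA cells (KRT5 by a log2 fold change of -1.20, TP63 by -1.14), and their summed linear level was 351152 to 390868 in control and 245256 to 253672 in PAK1 shRNA cells. Of 8 luminal markers 6 were tested, with PGR and ELF5 at background, of which KRT19 (-1.03) and GATA3 (-0.49) were lower and FOXA1 (1.49) and KRT18 (0.35) higher. Their sum, mostly from the bright KRT18 probe, was 57633 to 58883 against 65349 to 71182. Of 8 fibroblast markers 4 were at background in both groups (COL1A2, COL3A1, PDGFRA and THY1), PDGFRB was lower (-0.59) and the other 3 were higher, and the sum of the 4 tested was 4047 to 4805 against 7926 to 8114. Of 8 immune markers 6 were tested. The pan-leukocyte gene PTPRC (log2 fold change 0.13, adjusted p = 0.226) and the T cell genes CD3E and CD3D were not called, CD68 rose by 3.75 on the log2 scale and CD79A by 0.47, and the sum was 7681 to 9118 against 16359 to 18315. The part of these shifts in the values of the mitotic genes was not tested.

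All 10 mitotic genes were lower in PAK1 shRNA cells, by 2.55-fold (MELK) to 39.8-fold (BIRC5). The median log2 fold change of the 10 was -3.66, where the median of all genes tested was 0.02. At an adjusted p under 0.05 from limma, 62.8% of all genes tested were called, 32.0% as lower and 30.8% as higher. A fall of at least 2-fold that passed the test was seen for all 10 genes and for 9.12% of all genes. In each of the 10 genes both PAK1 shRNA arrays lay below both control arrays, as they did in 39.8% of all genes. The RNA came from whole cultures, so fewer dividing cells and less of these messages per dividing cell cannot be told apart.

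**Figure D1:**
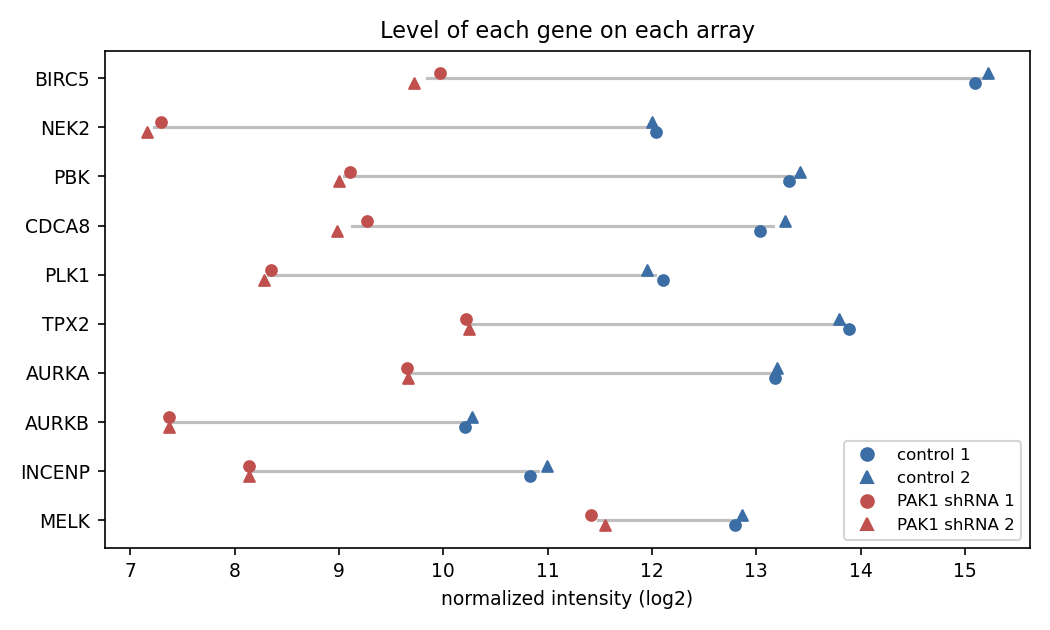
Normalized log2 intensity of the 10 mitotic genes (one row per gene, log2 axis) on each of the 2 control and 2 PAK1 shRNA arrays, 1 point per array and a grey line between the group means. The groups do not overlap for any gene, and the difference is smallest for MELK (-1.35) and largest for BIRC5 (-5.31).

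Of the chromosomal passenger genes, BIRC5 fell the most. Its levels were 15.10 and 15.22 in control cells against 9.97 and 9.72 in PAK1 shRNA cells. The groups lay far apart and the arrays of a group close together, with a log2 fold change of -5.31 (95% interval -5.56 to -5.06, adjusted p = 3.25e-07). Only 2 of the 21248 genes had a lower fold change. The BIRC5 probe lies at chr17:76220720-76220779 in the hg19 coordinates of the array design, which name no exon.

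CDCA8, the borealin subunit that holds survivin in the complex, had levels of 13.04 and 13.27 in control cells and of 9.27 and 8.98 in PAK1 shRNA cells. These are the widest gaps between replicates among the 10 genes, and both were still small beside the distance between the groups. The log2 fold change was -4.03 (95% interval -4.33 to -3.73, adjusted p = 1.32e-06), a 16.3-fold lower level. The probe lies at chr1:38175149-38175208 (hg19).

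INCENP, the scaffold that binds and activates AURKB, was at 10.83 and 10.99 in control cells and at 8.14 on both PAK1 shRNA arrays. The fall was 6.83-fold, with a log2 fold change of -2.77 (95% interval -2.97 to -2.57, adjusted p = 1.24e-06). AURKB, the kinase of the complex, was at 10.20 and 10.27 in control cells and at 7.37 on both PAK1 shRNA arrays. Its fall of 7.30-fold was close to that of INCENP (log2 fold change -2.87, 95% interval -3.04 to -2.69, adjusted p = 6.89e-07), and the intervals of this pair overlap. The INCENP probe lies at chr11:61919742-61919801, and the 60-base AURKB probe spans chr17:8110655-8110917, so its sequence is split in the genome (hg19).

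The array carried 10 spots each of the BIRC5 and INCENP probes, which shows the spread within an array. The SD over the BIRC5 spots was 0.128 and 0.113 on control arrays and 0.110 and 0.098 on PAK1 shRNA arrays, and over the INCENP spots it was 0.169 and 0.159 against 0.109 and 0.132. One BIRC5 spot on control array 2 was flagged and left out. Single BIRC5 spots ran from 14.89 to 15.34 in control cells and from 9.55 to 10.13 in PAK1 shRNA cells. Single INCENP spots ran from 10.56 to 11.16 and from 7.98 to 8.33. No spot of either gene reached into the range of the other group. Spots of 1 array share 1 RNA and count as 1 measurement.

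**Figure D2:**
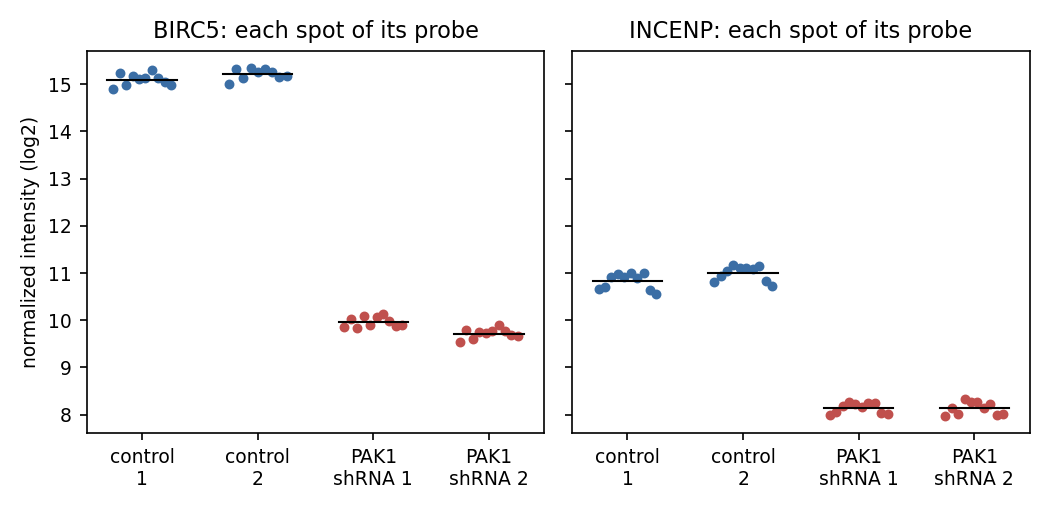
Normalized log2 intensity of each of the 10 spots of the BIRC5 and INCENP probes on the 4 arrays, 1 point per spot. Control and PAK1 shRNA spots do not overlap for either gene, and the SD within an array (0.098 to 0.169) is small beside the distance between groups.

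The kinases that lead the cell into mitosis fell as well. PLK1, which acts from centrosome maturation to cytokinesis, was at 12.11 and 11.96 in control cells and at 8.35 and 8.28 in PAK1 shRNA cells. The level was 13.1-fold lower (log2 fold change -3.71, 95% interval -3.92 to -3.51, adjusted p = 4.89e-07). A further PLK1 probe, dimmer and at chr16:23692251-23692310 against chr16:23700970-23701212 for the brighter one (hg19), read 9.24 and 9.27 against 6.71 and 6.88. It fell by less (log2 fold change -2.46, standard error 0.085), so the probes shared the direction and differed in size. The difference in size depended on the processing. With Agilent's processed signal scaled to its 75th percentile, the brighter and the dimmer PLK1 probe gave -3.97 and -3.53. With the background model fitted on all spots they gave -2.77 and -1.02.

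AURKA was at 13.17 and 13.20 in control cells and at 9.66 on both PAK1 shRNA arrays. Its arrays agreed most closely within both groups, and the level fell 11.5-fold (log2 fold change -3.53, 95% interval -3.70 to -3.36, adjusted p = 3.54e-07). The probe lies at chr20:54945120-54945179 (hg19). AURKA has a processed pseudogene with near-identical sequence, AURKAPS1, and how much of either signal comes from the other cannot be told apart here. The probe named for AURKAPS1 read 11.52 and 11.51 in control and 11.93 and 11.99 in PAK1 shRNA cells, a log2 fold change of 0.44 (standard error 0.073, adjusted p = 0.00177), opposite in direction to AURKA.

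TPX2, which binds AURKA and keeps it in its active shape, was at 13.89 and 13.80 in control cells and at 10.22 and 10.25 in PAK1 shRNA cells. Its change on the log2 scale of -3.61 (95% interval -3.79 to -3.42, adjusted p = 3.91e-07) lay close to that of the kinase it activates. The 95% intervals of PLK1, TPX2 and AURKA overlap one another, while the interval of AURKA lies wholly below that of AURKB. The gap between the Aurora kinases depended on the processing. AURKB fell by 0.66 less than AURKA on the log2 scale here, by 1.501 less with the background model fitted on all spots, by 0.29 less with no offset added to the intensities and by 0.12 less with Agilent's processed signal scaled to its 75th percentile.

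NEK2 had the largest fall among the kinases, other than with the background model fitted on all spots or the mean taken over a gene's probes, where PBK fell more. Its levels were 12.04 and 12.00 in control cells and 7.29 and 7.16 in PAK1 shRNA cells, a 27.8-fold lower level (log2 fold change -4.80, 95% interval -4.99 to -4.60, adjusted p = 2.58e-07). It stood at rank 16 of all genes ordered from the lowest fold change. In PAK1 shRNA cells the scanner signal of this probe was 129 and 114, against 5551 and 4235 in control cells. A dimmer NEK2 probe (chr1:211842588-211842647, against chr1:211836861-211836920 for the brighter one, hg19) read 10.15 and 10.14 against 6.49 and 6.40, a log2 fold change of -3.70 (standard error 0.075). Scaled by the 75th percentile of the processed signal, the NEK2 probes gave -5.51 and -5.58, and with the background model fitted on all spots they gave -3.16 and -1.72.

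PBK, a kinase of dividing cells that phosphorylates histone H3 and MAP kinases, was at 13.31 and 13.42 in control cells and at 9.11 and 8.998 in PAK1 shRNA cells. The level was 19.9-fold lower (log2 fold change -4.31, 95% interval -4.51 to -4.11, adjusted p = 3.14e-07). MELK moved least of the 10. It was at 12.79 and 12.87 in control cells and at 11.41 and 11.55 in PAK1 shRNA cells, so 39.3% of the control level remained (log2 fold change -1.35, 95% interval -1.55 to -1.15, adjusted p = 1.85e-05). The MELK interval does not reach that of any of the other 9 genes, and 5.09% of all genes tested had a lower fold change than MELK. The MELK probe lies at chr9:36677192-36677251 and the TPX2 probe at chr20:30388973-30389032 (hg19).

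**Figure D3:**
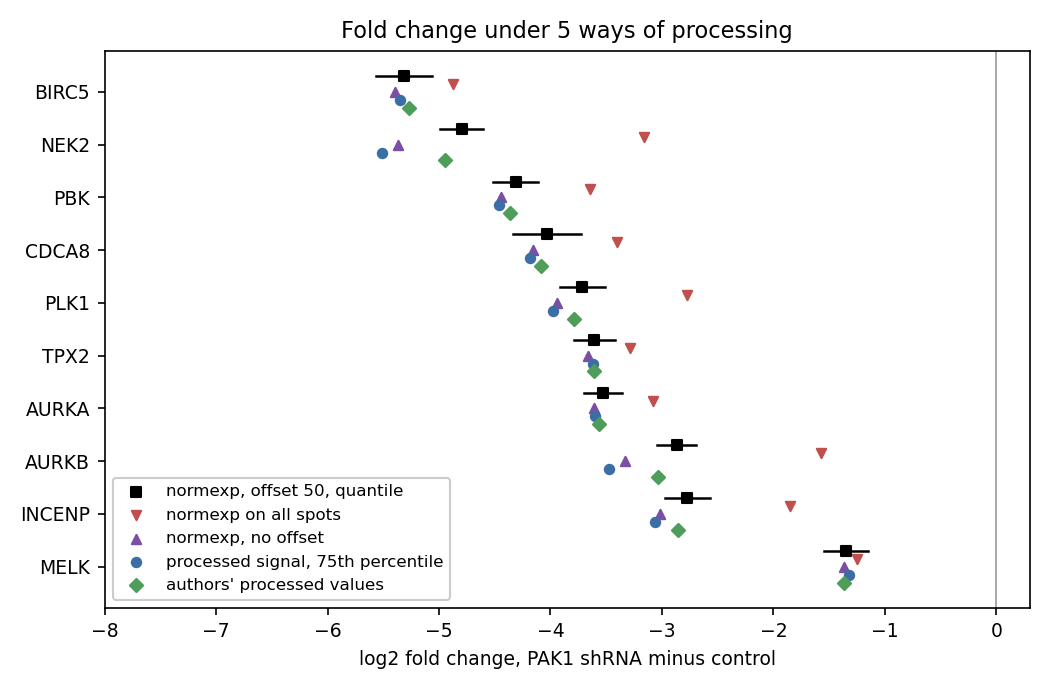
Log2 fold change (PAK1 shRNA minus control) of the 10 genes under 5 ways of processing the intensities, with 95% intervals for the values reported in the text (black squares). Every point lies below 0, MELK is nearest to 0 under each, and the settings part most for AURKB (-3.48 to -1.58) and NEK2 (-5.51 to -3.16).

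All 10 genes stayed lower, and past the threshold, under each of 17 alternatives tried. With the background model fitted on all spots their median was -3.12 and the range -4.88 to -1.25. The log2 fold changes of AURKB (-1.58), INCENP (-1.85), NEK2 (-3.16) and PLK1 (-2.77) then differed most from those given above. With only 2 arrays in each group, the smallest p that an exact two-sided permutation test can give for any 1 gene is 0.333. With each gene's own variance in place of limma's moderated one (an unpaired t-test), all 10 were still called, with an adjusted p of at most 0.0223.

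The profile over the 4 arrays was compared between each other gene and the mean of the 10, as the Euclidean distance between log2 values centred per gene. MCM6 was nearest, at a distance of 0.0586 and with a log2 fold change of -3.69 (that of the mean profile was -3.63). FOXM1 (0.107), PKMYT1 (0.108), DEPDC1 (0.123) and CKAP2L (0.124) followed.

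Relatives of these kinases moved in both directions. Of 15 other Aurora, Polo-like and NEK genes, 14 were tested (NEK5 was at background), and 4 were lower, 4 were higher and 6 did not pass the test. Both counts are shares close to those of all genes tested (32.0% lower and 30.8% higher), and the median log2 fold change was -0.08. The largest fall was that of PLK4, the kinase that starts centriole duplication, from 9.63 and 9.67 to 7.11 and 7.04 (log2 fold change -2.57, adjusted p = 1.08e-06). NEK4 fell by 1.89 on the log2 scale. Their size depended on the processing, from -3.37 to -1.22 for PLK4 and from -2.13 to -1.12 for NEK4 over the 17 alternatives. PLK3 and PLK2, stress-responsive Polo-like kinases, went the other way. PLK3 rose from 12.85 and 12.87 to 14.84 and 14.88 (log2 fold change 2.00, adjusted p = 2.26e-06), and PLK2 rose from 13.37 and 13.32 to 14.64 and 14.68 (log2 fold change 1.32, adjusted p = 1.18e-05). Both kept this direction, and passed the test, under all 17 alternatives.

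AURKC, the Aurora kinase best known from germ cells, stayed dim, at 6.89 and 6.82 in control and 7.12 and 7.22 in PAK1 shRNA cells. This log2 difference of 0.32 (adjusted p = 0.0115) kept its sign in all 17 alternatives (0.077 to 0.80) and its call in 13. NEK6 and NEK9, which act in a chain with NEK7 in spindle assembly, had log2 fold changes of -0.60 (adjusted p = 0.000558) and -0.32 (adjusted p = 0.0146), and NEK7 one of 0.60 (adjusted p = 0.000444, 0.26 to 0.92 over the alternatives). The call of NEK9 was lost in 6 of the 17.

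Genes that activate or place these kinases, listed with other partners of them, were mostly lower. Of 16 listed, 14 were tested (the spots of AJUBA and BOD1 were flagged). Of these, 12 were lower and 2 higher, with a median log2 fold change of -2.66. Over all genes tested, 32.0% were called lower and 30.8% higher. The largest falls were those of HMMR (-4.75), which links TPX2 to spindle poles, and CENPA (-3.89), the centromeric histone. The genes that mark where the passenger complex docks also fell, with log2 fold changes of -3.63 for BUB1, -3.25 for SGO2, -3.06 for SGO1 and -2.06 for the histone kinase HASPIN. All 17 alternatives called these genes and CENPA lower, but the size ranged widely for HASPIN (-3.53 to -0.67), SGO1 (-3.88 to -1.50), SGO2 (-4.02 to -1.82) and CENPA (-4.57 to -2.37). BORA, which presents PLK1 to AURKA, fell by 2.25. The higher ones were PLK1S1 (0.74, adjusted p = 0.00022) and NEDD9 (0.30, adjusted p = 0.0385). PLK1S1, and AURKAIP1 (-0.50) among the lower ones, are partners of these kinases and not activators. The whole list is called activators below. NEDD9 was not well above background in control cells. Its rise of 1.23-fold is the estimate under the processing used here and not a lower bound. Its log2 fold change ran from 0.05 to 2.00 over 16 alternatives. The call of NEDD9 was lost in 6 of the 16.

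Among 20 listed substrates 19 were tested (KIF2C was flagged), and 18 were lower, 0 were higher and 1 was not called, with a median of -3.59. The shares over all genes tested were 32.0% lower and 30.8% higher. KIF20A, a kinesin of the central spindle, and DLGAP5, a spindle microtubule binder, fell the most (log2 fold changes of -5.57 and -5.11). Cyclin B1 (CCNB1) had a log2 fold change of -4.97 and the proliferation antigen MKI67 one of -4.31. ECT2, which starts the cytokinetic furrow, fell by 1.12. WEE1, the kinase that PLK1 marks for destruction at mitotic entry, was at 11.40 and 11.57 in control and 11.45 and 11.55 in PAK1 shRNA cells (log2 fold change 0.01, adjusted p = 0.907), with groups that overlap.

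Genes of phosphatases that oppose these kinases, listed with regulators of those phosphatases, moved less. Of 18 tested, 13 were lower, 3 were higher and 2 were not called, and the median was -0.34. These counts include ARPP19 (-1.25), ENSA (-0.77) and MASTL (0.25), which are regulators and not phosphatases. The whole list is called phosphatases below. PPP2R5D and PPP1CC had the largest falls (log2 fold changes of -2.23 and -1.50), and PPP2R5B and PPP2R2A the largest rises (1.73 and 0.61). Of the machinery that degrades Aurora, Polo and NEK2 proteins at mitotic exit, 16 of 18 genes were tested (ANAPC5 and ANAPC10 were flagged), and 11 were lower, 2 were higher and 3 were not called, with a median of -0.52. The falls were largest in UBE2C (-5.19) and CDC20 (-4.77), the ubiquitin-conjugating enzyme and a co-activator of the anaphase-promoting complex, while the core subunit ANAPC2 (0.45, and 0.22 to 0.59 over the alternatives) and the ubiquitin ligase subunit FBXW7 (0.65) rose. These counts are read against the 32.0% of all genes called lower and the 30.8% called higher.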

How the data were processed

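Human arrays of MCF10A.B2 cells, 2 control and 2 PAK1 shRNA, were grouped by their labels. The authors deposited the spot intensity (mean signal and local background) and spot flags from Agilent Feature Extraction 9.5.3.1, not normalized between arrays, and a table of processed log2 values, used as an alternative. The study's methods name normexp, quantile normalization and limma. Here normexp (offset 50) was fitted without spots of flagged background, because such spots moved the fit on control arrays. Control spots were dropped, arrays were quantile normalized, spots with any of 4 flags were removed and repeat spots were averaged per probe. A probe entered if both arrays of either group read it well above background, and each gene was represented by its brightest probe on average. limma 3.58.1 (R 4.3.3) tested 21248 genes, with p-values adjusted over all of them by Benjamini-Hochberg (threshold 0.05).

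The 10 genes and all lists were chosen with earlier results of these data known. Genes named from a list are its 2 lowest and 2 highest fold changes and those ordered by role, the docking genes, BORA, CCNB1 and MKI67 having been added after their values were seen, as was AURKAPS1. Some genes carry older symbols on the array (BORA as C13orf34, HASPIN as GSG2, SGO1 and SGO2 as SGOL1 and SGOL2), and the aliases were listed by hand. Probe coordinates are hg19 as the array design gives them, and exons were not looked up. On simulated data of the same size, in which 200 genes were changed, limma recovered 64% of changes of 1 and 94% of changes of 2 (log2). It called 3 genes that had not been changed. A far larger share of genes was called on the real arrays, so these rates may not hold for them. Replicates had a median absolute log2 difference of 0.0928 in control and 0.0814 in PAK1 shRNA cells. Alternatives covered the background model, the offset (added after the data were seen), signal, normalization, filter, flags, probe rule, test, threshold, the replicate block, and leaving out each array. A slide effect could not be fitted, as a single slide was used. For a gene near background in a group the fold was also computed with a floor. It was set against the higher of the gene's own signal there and the dimmest signal well above background. For NEDD9 its own signal was the higher, so this fold is the plain estimate and not a bound.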

Additional observations from a re-analysis of the deposited data

How the results depend on the processing

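The 10 mitotic genes and PAK1 kept their direction and their call under all 17 alternatives, with PAK1 between -0.86 and -0.64. The folds of the dimmer PLK1 and NEK2 probes depended on the processing, and the part of their low signal in this was not tested. The median of the 10 genes was -3.12 with the background model fitted on all spots, -3.80 with the processed signal scaled to its 75th percentile and -3.80 without an offset. It ran from -3.72 to -3.60 when each array was left out. The same-numbered arrays did not deviate together (correlation 0.0078 over 26301 probes). With a replicate block 10 of the 10 genes were called lower, and 6726 genes were called higher and 6890 lower, against 6545 and 6796 without it. The methods' t-test, an unpaired t-test that the study names for its statistics in general and not for the arrays, gave 4237 higher and 4633 lower genes after Benjamini-Hochberg, and 5665 and 6010 before it. At 2-fold, 1867 genes were higher and 1938 lower. The median of all genes moved from 0.02 to 0.12 with the 75th percentile and to 0.14 with median centring, and the lower genes were then 45.78% and 43.93% of those called, against 50.94%.

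Medians of the lists were as follows, and the cause of the differences was not tested. With the background model fitted on all spots the medians were -0.038 for relatives, -1.71 for activators and -3.04 for substrates. With the 75th percentile they were -3.52 for activators, -3.68 for substrates and -0.46 for the degradation genes. With cyclic loess they were -2.59 for activators, -3.50 for substrates, -0.28 for phosphatases and -0.41 for degradation genes. With median centring the relatives turned to 0.025, with -3.62 for substrates, -0.41 for phosphatases and -0.55 for degradation genes. With probes well above background on all arrays activators were at -3.06. With flagged spots kept, activators were at -2.16, substrates at -3.68 and degradation genes at -0.59. With the mean over a gene's probes, relatives were at -0.14, activators at -2.53, substrates at -3.56 and degradation genes at -0.47. With the authors' processed values they were at -0.13, -2.29, -3.72 and -0.57 in the same order. Without an offset relatives were at -0.12, activators at -3.23 and substrates at -3.67. Leaving out each array gave -0.12 to -0.067 for relatives, -2.71 to -2.61 for activators, -3.67 to -3.54 for substrates, -0.39 to -0.33 for phosphatases and -0.56 to -0.53 for degradation genes.

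Of the activators 1 in place of 2 was called higher with the model fitted on all spots, with probes well above background on all arrays and with the methods' t-test, adjusted or not, and 1 to 2 when each array was left out. It was 1 without control array 1 and without either PAK1 shRNA array. With flagged spots kept and with the authors' processed values, 3 activators were called higher. At 2-fold, 2 relatives were lower and 2 higher, 11 activators were lower and 0 higher, and 18 substrates were lower and 0 higher. At this threshold 4 phosphatases were lower and 1 higher, and 6 degradation genes were lower and 0 higher. Over all 21248 genes tested, 1938 (9.12%) were then lower and 1867 higher.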
